A study of Mus musculus with 20 samples.

Results

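The cytosolic ribosomal protein genes were followed in mouse liver at the level of total RNA and of polysome RNA. They were the gene rows whose symbol was Rpl or Rps with a number and an optional letter, l or copy-digit suffix, together with Rplp0, Rplp1, Rplp2 and Rpsa, without the S6 kinase genes and without pseudogenes (by symbol or by the RefSeq gene type). This gave 85 of the 53028 genes in the count table. The gene type left out 5 rows whose symbols fit, Rpl6l, Rps3a2, Rps3a3, Rps4l and Rps12l1, of which Rps4l, a transcribed pseudogene, was the 1 that passed the filter on low counts. Of the 85, 81 passed that filter (32 for proteins of the small, 40S, subunit and 49 of the large, 60S, subunit). The other 4, Rpl3l, Rpl10l, Rpl32l and Rpl39l, reached at most 7, 1, 2 and 14 counts in any library and were not tested.

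The animals were 10 male C57BL/6J mice on chow, 5 given a locked nucleic acid (LNA, a modified antisense oligonucleotide) against GFP, which mice lack, as the control, and 5 given an LNA against SNORA73, a small nucleolar RNA made from introns of Snhg3. The mice of the polysome work were 10 weeks old and had 3 injections over 1 week. The general protocol for LNA treatment on chow was 3 mg/kg into the peritoneum every other day, starting at 8 weeks of age, so the ages stated in both places differ. Cycloheximide was given into the tail vein shortly before the livers were taken, to hold ribosomes on their mRNAs. Each liver gave a total RNA library from the lysate and a polysome RNA library from the sucrose gradient fractions that hold mRNAs with several ribosomes, so there were 20 polyA-selected libraries. The sample labels write the target as Snora37kd, while the design text and the study's paper name SNORA73. In this text the groups are called GFP and SNORA73, and lists of 5 values run over mice 1, 2, 3, 8 and 9 (GFP) or 4, 6, 10, 11 and 12 (SNORA73).

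Most of these proteins are present once in each ribosome, and the stalk proteins Rplp1 and Rplp2 are an exception, bound as dimers to Rplp0. Most ribosomal protein mRNAs belong to the TOP class, whose mRNAs start with a cytosine followed by a run of pyrimidines. Through that start, growth and nutrient signalling by mTOR sets what part of TOP mRNAs is on polysomes and what part is stored without ribosomes. Many of the genes also carry small nucleolar RNAs in their introns.

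The sequences around the annotated transcription starts are shown for genes at both ends of the loading range described next, for the gene with the largest LNA difference in loading (Rps18), and for Rps27 and Rpl36a beside their paralogs. Each is the sense strand, 5′ to 3′, from 15 bases before the start to 15 bases from it on, and capitals mark the longest uninterrupted run of C and T that touches the 5 bases on either side of the start.
Rplp0: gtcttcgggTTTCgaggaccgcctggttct
Rps12: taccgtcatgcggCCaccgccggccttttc
Rpl5: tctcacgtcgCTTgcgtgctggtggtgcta
Rps7: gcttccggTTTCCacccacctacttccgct
Rps18: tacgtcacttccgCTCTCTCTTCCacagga
Rps27: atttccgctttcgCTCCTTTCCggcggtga
Rps27l: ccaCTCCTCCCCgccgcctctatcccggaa
Rpl36a: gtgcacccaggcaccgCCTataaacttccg
Rpl36al: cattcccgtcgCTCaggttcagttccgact
Rpl38: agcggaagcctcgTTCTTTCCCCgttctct
These windows lay at chr5:115559452-115559481 (plus strand) for Rplp0, chr10:23787195-23787224 (minus strand) for Rps12, chr5:107900513-107900542 (plus strand) for Rpl5, chr12:28635939-28635968 (minus strand) for Rps7, chr17:33955651-33955680 (minus strand) for Rps18, chr3:90213634-90213663 (minus strand) for Rps27, chr9:66946071-66946100 (plus strand) for Rps27l, chrX:134585639-134585668 (plus strand) for Rpl36a, chr12:69184053-69184082 (minus strand) for Rpl36al and chr11:114668565-114668594 (plus strand) for Rpl38, all in GRCm38.p6 by RefSeq.

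A start was given for 65 of the 85 genes. Of these, 36 (55.4%) held a run of at least 5 pyrimidines that touched the 5 bases on either side of it. The share was 35.1% of all 27025 symbols with a start and 36.4% of those whose genes were tested. Rplp0, Rps12, Rpl5 and Rps7, from the low end of loading, had runs of 4, 2, 3 and 5 bases. From the high end, Rpl36al, Rps27l and Rpl38 had runs of 3, 9 and 10. Rps18, Rps27 and Rpl36a had runs of 11, 9 and 3. Among the windows printed, the run included the start base itself only for Rps18, Rps27 and Rpl38. Annotated starts can lie some bases away from the starts used in liver. Where a gene had several starts, the one with the longest run was taken, for all genes alike.

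Polysome loading here is the log2 difference between polysome and total RNA within a group, after TMM scaling of all libraries. A value of 0 means that an mRNA took the same share of both libraries relative to the other genes, so it is a relative measure and does not count ribosomes. Total RNA libraries held 20005389 to 42023390 counts and polysome libraries 14852951 to 33824659. The 85 genes took 2.40 to 2.68% of the counts in total RNA of GFP livers, 1.69 to 2.39% in total RNA of SNORA73 livers, 2.15 to 2.76% in polysome RNA of GFP livers and 2.11 to 2.55% in polysome RNA of SNORA73 livers. The 95% Wilson interval of each share was at most 0.00802 percentage points to either side, which covers counting error only. These shares are not TMM-scaled. In total RNA the highest SNORA73 liver lay just below the lowest GFP liver, and in polysome RNA the groups overlapped. On the TMM scale the groups overlapped in total RNA too. The median log2 CPM of the tested members there was 7.96 to 8.16 in GFP and 7.74 to 8.15 in SNORA73 livers. Counts of the mitochondrially encoded genes were 11.2 to 15.4% of total RNA and 1.76 to 3.89% of polysome RNA. The hepatocyte markers (7 of 7 found, among them Alb and Apob) summed to between 46096 and 73839 CPM in the GFP libraries, and to between 50685 and 74182 CPM in the SNORA73 libraries. SNORA73 itself could not be read as a check of the knockdown in these polyA-selected libraries, where Snora73a and Snora73b had at most 2 and 4 counts in any library.

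In GFP livers the ribosomal protein mRNAs were spread over a wide part of the loading scale, with an SD of 0.47 over genes. Of the 81 tested, 13 were higher in polysome than in total RNA, 26 were lower and 42 were not called (edgeR quasi-likelihood test, adjusted p below 0.05 over all genes), against 21.8% of all 13795 genes called higher and 21% called lower. The median was -0.10, compared with 0.03 for all genes, and values ran from -1.19 for Rplp0 to 1.17 for Rpl36al. Small subunit genes were called higher 1 time (Rps27l) and lower 11 times of 32. Large subunit genes were called higher 12 times and lower 15 times of 49. The median loading was -0.10 for the small and -0.14 for the large subunit genes.

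**Figure D1:**
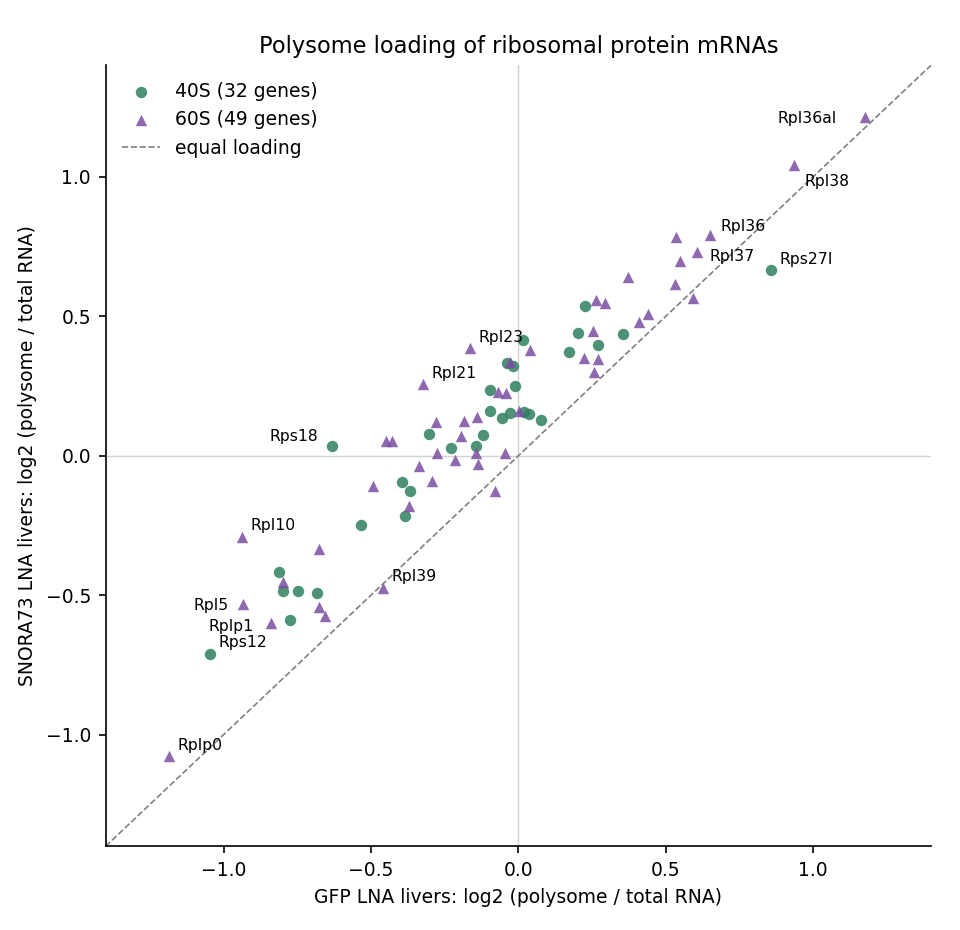
Log2 polysome loading of the 81 tested genes in GFP livers (x axis) and in SNORA73 livers (y axis), with circles for 40S and triangles for 60S genes. Values ran from Rplp0 to Rpl36al in both groups, and 77 of 81 genes lay above the dashed line of equal loading.

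The acidic stalk, the lateral arm of the 60S subunit that recruits the translation factor GTPases, was split between both ends of the scale. Rplp0, the stalk base, measured 359, 333, 366, 294 and 282 CPM in total RNA and 158, 132, 152, 124 and 151 CPM in polysome RNA of the GFP mice. Every polysome value was below every total value, and the loading was -1.19 ± 0.14 (log2 ± SE, adjusted p = 1.00e-06). Rplp0 ranked lowest of the 81 genes in 7 of the 10 mice and was among the lowest 4 in all of them. Rplp1 measured 364, 340.4, 376, 325 and 328 CPM in total and 199, 159.6, 185, 172 and 253 CPM in polysome RNA, also without overlap, with a loading of -0.84 ± 0.13 (adjusted p = 4.05e-05). Its partner Rplp2 went the other way, with 161, 161, 166, 123 and 166 CPM in total and 244, 178, 202, 193 and 320.2 CPM in polysome RNA. The loading of Rplp2 was 0.55 ± 0.19 (adjusted p = 0.0227) and was positive in all 10 mice, but it was no longer called without GFP mouse 1, 8 or 9 (adjusted p = 0.0627, 0.0566 and 0.102).

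The 2 proteins that bind 5S rRNA in a particle that can also inhibit Mdm2, Rpl5 and Rpl11, differed as well. Rpl5 measured 38.0, 39.7, 27.7, 36.1 and 31.9 CPM in total and 26.1, 16.5, 15.2, 14.1 and 18.9 CPM in polysome RNA of GFP mice, with a loading of -0.93 ± 0.15 (adjusted p = 5.90e-05). Rpl11 measured 265, 279, 261, 273 and 205 CPM in total and 349, 309, 265, 263 and 309.6 CPM in polysome RNA, with a loading of 0.22 ± 0.13 that was not called (adjusted p = 0.171). All polysome values of Rpl5 were below its total values, while those of Rpl11 overlapped them.

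Other low values belonged to genes of both subunits. Rps12, a 40S protein and host of Snora33 and Snord100, measured 209, 209.6, 214, 219 and 196 CPM in total and 122, 82.2, 97.7, 78.6 and 127 CPM in polysome RNA of GFP mice, with no overlap and a loading of -1.05 ± 0.14 (adjusted p = 4.53e-06). Rpl10, which joins the 60S subunit late in its maturation, had a loading of -0.94 ± 0.19 (adjusted p = 0.000417), from total values of 73.4, 78.4, 80.6, 103 and 62.4 CPM and polysome values of 38.1, 55.9, 42.0, 38.0 and 33.5 CPM. The Rpl10 value cannot be separated from that of its copies: pseudogenes named after it held 88.7% of the combined counts, and with these added the loading was -0.05 (adjusted p = 0.763). Summed with its own named pseudogenes, which held 38.0% of the combined counts, Rps12 stayed at -1.02 (adjusted p = 3.92e-05). The further genes called lower ran from Rps3a1 at -0.81 to Rpl7 at -0.28 and included Rpsa, the laminin receptor homologue, at -0.68, and Rps2 and Rps4x at -0.78 and -0.75.

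At the high end, Rpl38, a small 60S protein known from the skeletal defects of the Tail-short mouse, measured 234, 230.3, 228, 191 and 226 CPM in total and 475, 362, 351, 376 and 559 CPM in polysome RNA of GFP mice. All polysome values were above all total values, with a loading of 0.94 ± 0.19 (adjusted p = 0.000510). Rpl36, another 60S protein, went from 218, 205, 203, 156 and 171 CPM in total to 377, 281, 234, 250.0 and 356 CPM in polysome RNA, a loading of 0.65 ± 0.18 (adjusted p = 0.00655). The 60S protein gene Rpl37, host of Snord72, had 208, 202, 179, 149 and 183 CPM in total and 340.2, 219, 248, 233 and 361 CPM in polysome RNA. Its loading was 0.61 ± 0.18 (adjusted p = 0.00937), and the call was lost without GFP mouse 9 (0.49, adjusted p = 0.0558). The other called genes above 0 were Rpl34 (0.59), Rpl27 (0.53), Rpl18 (0.53), Rpl24 (0.41), Rpl35a (0.37) and Rpl7a (0.26).

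The paralog genes, second copies that encode a close relative of a ribosomal protein, sat mostly at the high end. Of the 7 among the members, 4 were tested, and 3 of these were called higher in polysome RNA and none lower, with a median loading of 0.65. Of all genes, 21.8% were called higher and 21% lower. The tested paralog that was not called, Rpl22l1, lay below 0. The pseudogene row Rps4l, which is not counted here, had a loading of 0.70 ± 0.21 (adjusted p = 0.0103). Rpl36al, an autosomal relative of the X-linked Rpl36a, measured 303, 280.3, 290.0, 307 and 293 CPM in total and 741, 549, 599, 627 and 809 CPM in polysome RNA of GFP mice. Its loading of 1.17 ± 0.12 (adjusted p = 3.63e-07) ranked highest of the 81 genes in 8 of 10 mice. Rpl36a measured 147, 158, 145, 169 and 153 CPM and 172, 123, 122, 139 and 180.4 CPM in the same libraries, with a loading of -0.07 ± 0.12 (adjusted p = 0.678) and overlapping values. Pseudogenes named after Rpl36a held 36.9% of its combined counts.

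Rps27l, a p53-responsive relative of Rps27, measured 270.3, 289, 244, 245 and 225 CPM in total and 453, 543, 436, 405 and 468 CPM in polysome RNA of GFP mice, and its loading was 0.86 ± 0.12 (adjusted p = 7.75e-06). Rps27 itself had 286, 283, 267, 217 and 234 CPM and 243, 184, 155, 154 and 242 CPM, with a loading of -0.39 ± 0.14 (adjusted p = 0.0263). The 2 windows printed for this pair both held a 9-base pyrimidine run, at or before the start. Rpl7l1, a relative of Rpl7, was higher in polysome RNA with a loading of 0.44 ± 0.11 (adjusted p = 0.00272), and Rpl7 was lower with -0.28 ± 0.11 (adjusted p = 0.0449). Rpl22l1, the relative of Rpl22, was not called at -0.21 ± 0.21 (adjusted p = 0.443). The muscle and testis paralogs Rpl3l, Rpl10l and Rpl39l were listed at 0 in 8, 18 and 12 of the 20 libraries. The differences in loading between a gene and its paralog were not tested.

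**Figure D2:**
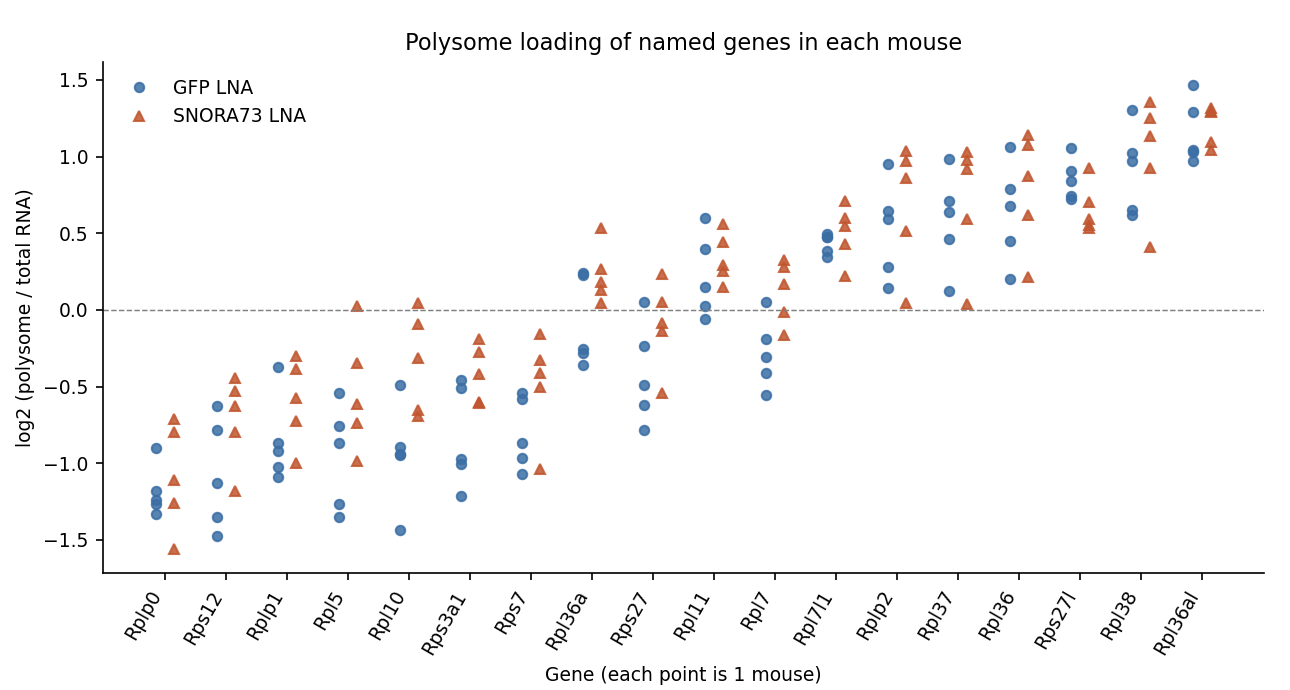
Log2 polysome loading (y axis) of named genes in each mouse, with circles for the 5 GFP and triangles for the 5 SNORA73 livers. Rplp0, Rps12 and Rplp1 were below 0 and Rpl36al, Rpl38 and Rps27l above 0 in all 10 mice.

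The order of the genes was shared by the livers. In SNORA73 livers 24 of the 81 genes were called higher and 13 lower in polysome RNA (edgeR, background 19.7% and 18.2% of all genes), with a median of 0.13 against 0.02 for all genes. The 13 genes called higher in GFP livers were 54.2% of the 24 called higher in SNORA73 livers, and all 13 were among them. The 13 called lower in SNORA73 livers were all among the 26 called lower in GFP livers. No gene was called in opposite directions. The same overlap over all genes is not given here, and both loadings come from 1 fit. It is therefore not shown to be particular to these genes. Across the 81 genes, which are not independent replicates and share TMM scaling and gene length between the groups, Spearman's rho between the loadings in GFP and SNORA73 livers was 0.937 and Pearson's r was 0.948. Between single mice rho ranged from 0.563 to 0.947 over 45 pairs, with a median of 0.859. The loading was below 0 in all 10 mice for 12 genes and above 0 in all 10 for 16, or 14.8% and 19.8% of the 81 against 19.2% and 20% of all genes, so neither share was above that of all genes.

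In SNORA73 livers the stalk base Rplp0 had 263, 334, 252, 229 and 274 CPM in total and 110.0, 113, 145, 106 and 168 CPM in polysome RNA, a loading of -1.08 ± 0.14 (adjusted p = 4.37e-06). Rps12 was at -0.71 ± 0.14 (adjusted p = 0.000354) and Rplp1 at -0.60 ± 0.13 (adjusted p = 0.00127). The highest loading was again that of Rpl36al, 1.22 ± 0.12 (adjusted p = 3.87e-07), followed by Rpl38, 1.04 ± 0.19 (adjusted p = 0.000222). Rplp2 was at 0.70 ± 0.19 (adjusted p = 0.00546) and Rps27l at 0.67 ± 0.12 (adjusted p = 0.000152). Of the 5S particle genes, Rpl5 was called lower at -0.53 ± 0.15 (adjusted p = 0.00931) and Rpl11 higher at 0.35 ± 0.13 (adjusted p = 0.0349). The Rpl5 call was lost without SNORA73 mouse 10 (adjusted p = 0.0584), and that of Rpl11 was lost without GFP mouse 2 or 3 or SNORA73 mouse 4, 10, 11 or 12 (adjusted p = 0.0511 to 0.107). Rpl10 was not called at -0.29 ± 0.19 (adjusted p = 0.234), although with the mouse as a block it was, at -0.34 (adjusted p = 0.0372).

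Genes that host a small nucleolar RNA within their span by the annotation made up 24 of the 81. Among them 2 (Rplp2 and Rpl37) were called higher and 13 lower in polysome RNA of GFP livers, with a median loading of -0.41. Among the 57 others 11 were called higher and 13 lower, with a median of -0.04. In SNORA73 livers the medians were -0.10 and 0.23. Grouped by pyrimidine run, the median loading in GFP livers was -0.09 for 34 genes with a run of at least 5 and -0.14 for 27 without, and across these 61 genes Spearman's rho between run length and loading was 0.18. These are descriptions over genes, and neither difference was tested.

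Lists of other genes of the translation machinery were read beside the members. Of the ribosomal proteins under other symbols, Fau (a ubiquitin-like protein fused to a 40S protein) was higher in polysome RNA of GFP livers, with a loading of 0.59 ± 0.18 (adjusted p = 0.0140). Rack1, a scaffold on the 40S subunit, was lower, at -0.45 ± 0.15 (adjusted p = 0.0194). The Fau call was lost without GFP mouse 9 (adjusted p = 0.0732) and that of Rack1 without GFP mouse 2 or 3 (adjusted p = 0.0841 and 0.0633). Of 14 other TOP mRNAs, mainly translation factors, 1 (Eef1d, 0.59) was called higher and 7 lower, led by Tpt1 (-1.34), Pabpc1 (-1.09) and Eef1a1 (-0.81), with a median of -0.30. Of 37 ribosome assembly factors, 19 were called higher and 3 lower (Utp15, Dimt1 and Pno1), with a median of 0.48 and Nop10, of the H/ACA particle, highest at 1.35.

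The LNA comparison in total RNA asked whether the level of these mRNAs changed with SNORA73 knockdown. None of the 81 was called in either direction (edgeR, background 0.0303% higher and 0% lower of 13195 genes), and 12 were lower and none higher at an unadjusted p below 0.05, where the background was 3.69% lower and 4.96% higher. The log2 difference was below 0 in 77 of 81, whereas 51.7% of all genes were above 0, and the median was -0.14 against 0.01 for all genes. All 32 small subunit genes and 45 of 49 large subunit genes were below 0, with medians of -0.16 and -0.13. These are counts over genes measured in the same mice, not separate observations. By library, the median log2 CPM of the tested members was 8.15 and 8.08 in SNORA73 mice 6 and 11. Both lay within the GFP range of 7.96 to 8.16. Limma-voom also called none, while DESeq2 called 2 lower, Rps7 and Rps3a1. As these are bulk libraries, fewer cells of a type and less of an RNA per cell cannot be told apart.

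In total RNA the groups did not overlap for 3 genes, all lower in SNORA73 livers (3.70% of the 81, background 0.705% lower and 1.1% higher). Rps7, a 40S protein, measured 308, 342, 333, 298 and 293 CPM in GFP and 233, 289.9, 213, 231 and 240.0 CPM in SNORA73 livers, a difference of -0.38 ± 0.10 (adjusted p = 0.327). DESeq2 gave -0.39 with an adjusted p of 0.0281. Rps3a1, a 40S protein and host of Snord73a, measured 647, 694, 657, 692 and 612 CPM and 554, 576, 478, 559 and 509.6 CPM, a difference of -0.30 ± 0.09 (adjusted p = 0.357) by edgeR and of -0.31 (adjusted p = 0.0244) by DESeq2. Rpl9, a 60S protein, measured 454, 479, 449.6, 382 and 397 CPM and 344, 379.8, 276, 358 and 335 CPM, a difference of -0.35 ± 0.11 (adjusted p = 0.376). The lowest fitted value was that of Rpl22l1, -0.46 ± 0.21 (adjusted p = 0.587), from 73.2, 78.1, 101, 69.5 and 83.9 CPM in GFP and 59.7, 85.2, 30.3, 54.9 and 64.9 CPM in SNORA73 livers, which overlapped. Rpl36a was at -0.30 ± 0.10 (adjusted p = 0.421). At the other end were Rpl22 at 0.11 ± 0.09 (adjusted p = 0.799), Rpl7l1 at 0.09 ± 0.10 (adjusted p = 0.842), Rpl36al at 0.04 ± 0.10 (adjusted p = 0.944), Rpl21 at 0.01 ± 0.09 (adjusted p = 0.993) and Rpl10 at -0.00270 ± 0.13 (adjusted p = 0.999).

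In polysome RNA none of the 81 was called by edgeR (background 0.0153% higher and 0% lower of 13060 genes), and 5 were higher and none lower at an unadjusted p below 0.05, where the background was 8.12% higher and 5.32% lower. Here 56 of 81 were above 0, compared with 48.6% of all genes, with a median of 0.08 against -0.01. This too is a count over genes and not over mice. Without TMM, scaled by library totals, the median of the 81 was -0.08, but all genes moved to -0.17, so the members stayed above the bulk of genes. The same change of scaling took the median in total RNA to -0.28, with all genes at -0.14. For no member were the groups free of overlap in polysome RNA (background 2.11% higher and 1.09% lower). Limma-voom called none and DESeq2 called 1, Rpl21, which was also called with all 20 libraries in 1 fit.

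The highest values in polysome RNA were those of Rpl10, Rpl21, Rps18, Rpl23 and Rpl22. Rpl21, a 60S protein, measured 408, 274, 246, 279 and 347 CPM in GFP and 389.5, 446, 449, 522 and 526 CPM in SNORA73 livers, a difference of 0.58 ± 0.16 (adjusted p = 0.165), and 0.59 (adjusted p = 0.0207) by DESeq2. Rps18, of the head of the 40S subunit, measured 279, 213, 195, 174 and 313 CPM and 285, 288, 372, 368 and 409 CPM, a difference of 0.55 ± 0.18 (adjusted p = 0.222). Rpl23, of the face of the 60S subunit that meets the 40S, measured 747, 494, 428, 488 and 704 CPM and 669, 741, 715, 895 and 797 CPM, a difference of 0.42 ± 0.17 (adjusted p = 0.314). For these genes GFP mice 1 and 9 were the highest of their group, and at least 1 of them reached into the SNORA73 range. Rpl22 was at 0.40 ± 0.17 (adjusted p = 0.345) and Rpl10 at 0.64 ± 0.21 (adjusted p = 0.235), or 0.22 (adjusted p = 0.505) with its pseudogenes added. The lowest were Rps27l at -0.29 ± 0.14 (adjusted p = 0.380), Rpl39, a small protein of the exit tunnel, at -0.26 ± 0.16 (adjusted p = 0.535), Rpl22l1 at -0.26 ± 0.19 (adjusted p = 0.585), Rpl9 at -0.20 ± 0.13 (adjusted p = 0.565) and Rplp0 at -0.16 ± 0.15 (adjusted p = 0.684).

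**Figure D3:**
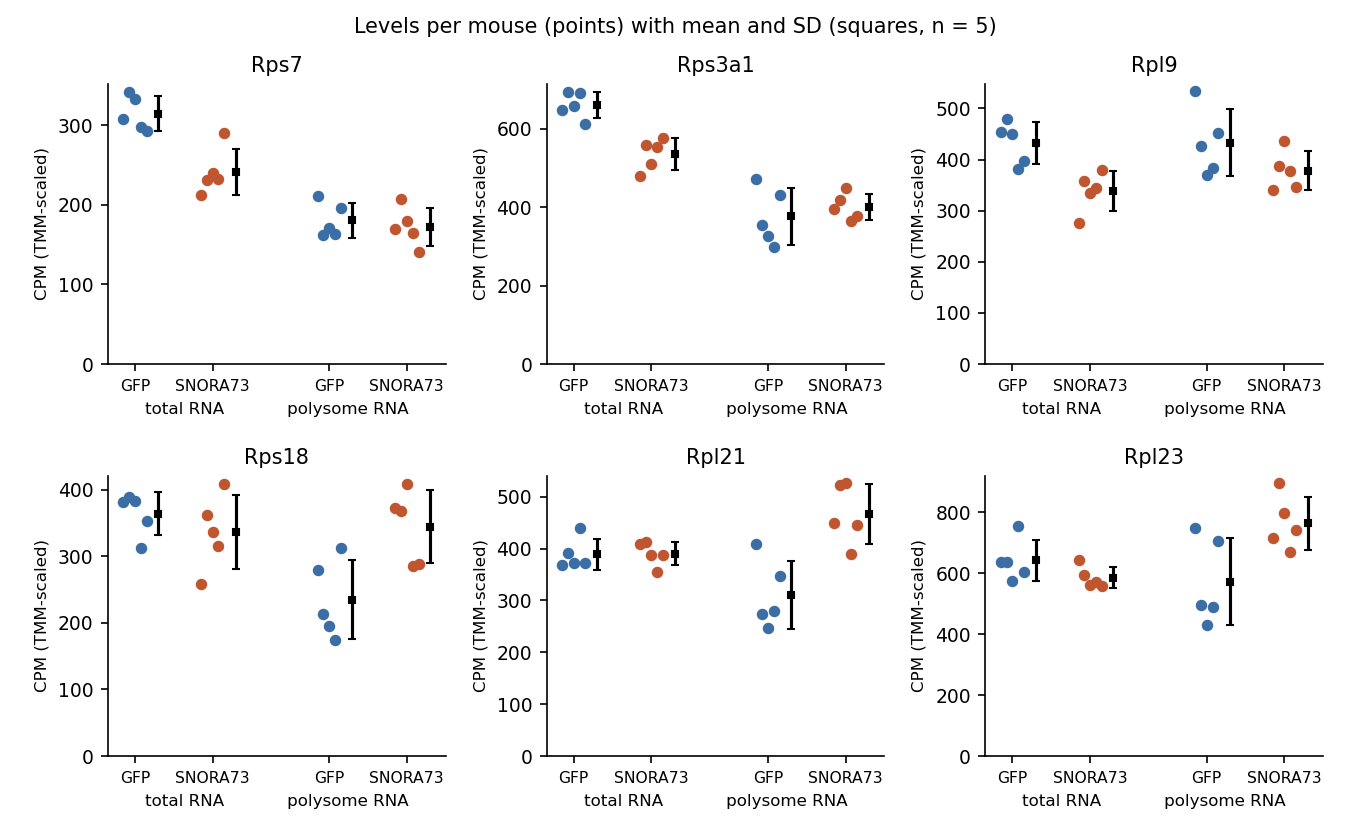
TMM-scaled CPM (y axis, from 0) in each library for 3 genes whose total RNA did not overlap between groups (Rps7, Rps3a1 and Rpl9) and 3 of the highest in the change of loading (Rps18, Rpl21 and Rpl23), with points for mice and squares with bars for the mean and SD of 5. The groups of the upper genes did not overlap in total RNA and overlapped in polysome RNA, and the lower genes overlapped in both.

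The change in loading, which is the LNA effect in polysome RNA less that in total RNA, was tested as an interaction over all 20 libraries. No ribosomal protein gene was called (edgeR, background 0% higher and 0.00725% lower of 13795 genes), nor by DESeq2 or limma-voom. At an unadjusted p below 0.05 there were 11 higher and none lower, where the background was 2.04% higher and 0.87% lower. The difference was above 0 in 77 of 81 genes, compared with 47.6% of all genes, and the median was 0.24 against -0.01. The 40S median was 0.25 and the 60S median 0.20. The genes moved together within a mouse, so these 77 are not 77 separate observations. The total RNA, polysome RNA and interaction values rest on the same 20 libraries.

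**Figure D4:**
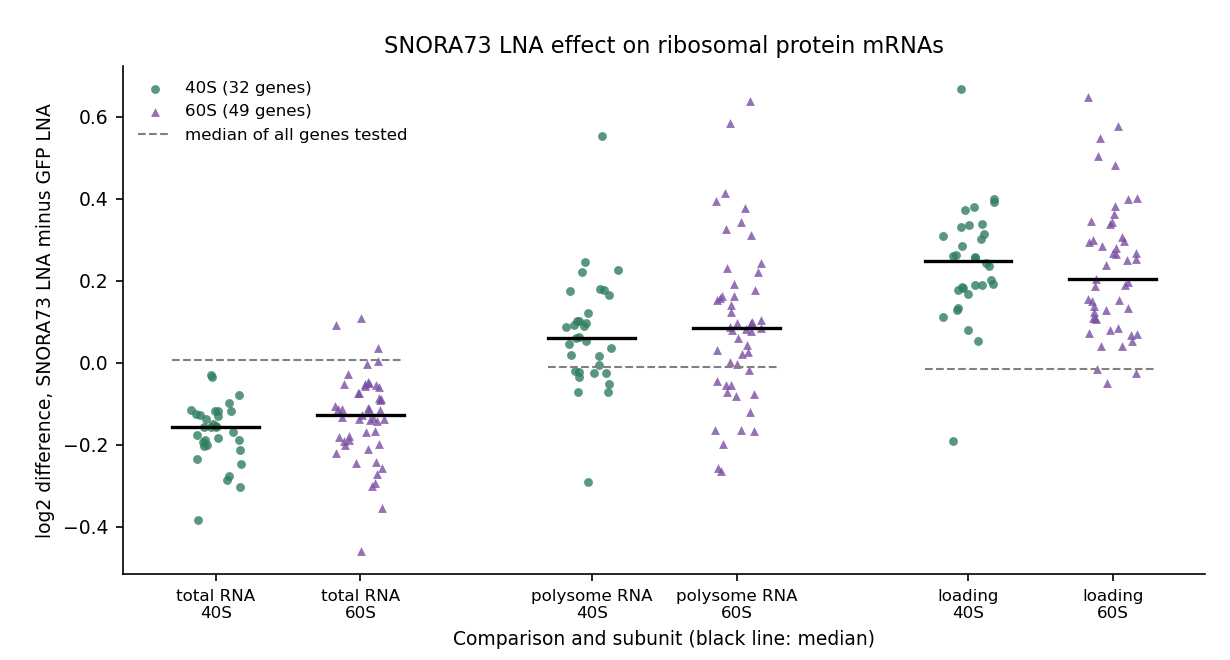
Log2 difference between SNORA73 and GFP livers (y axis) in total RNA, in polysome RNA and in loading, for 32 genes of the 40S and 49 of the 60S subunit, with a black line at each median and a dashed line at the median of all genes tested. In total RNA 77 of 81 points were below 0 and in loading 77 of 81 were above 0.

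Seen by mouse, the median loading of the 81 genes was 0.15, -0.33, -0.33, -0.21 and 0.21 in the GFP livers (mean -0.10 ± 0.27 SD) and 0.02, -0.16, 0.31, 0.16 and 0.37 in the SNORA73 livers (mean 0.14 ± 0.22). GFP mice 1 and 9 were above SNORA73 mice 4 and 6, so the groups overlapped, and the difference of the means was about as large as the spread between mice. The number of genes above 0 was 51, 22, 20, 24 and 58 of 81 in the GFP mice and 44, 28, 63, 55 and 64 in the SNORA73 mice. The median of all genes lay between -0.01 and 0.03 in each mouse, as TMM sets it. For no member were the 2 groups of per-mouse loadings free of overlap, against 0.834% of all genes higher and 0.906% lower.

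**Figure D5:**
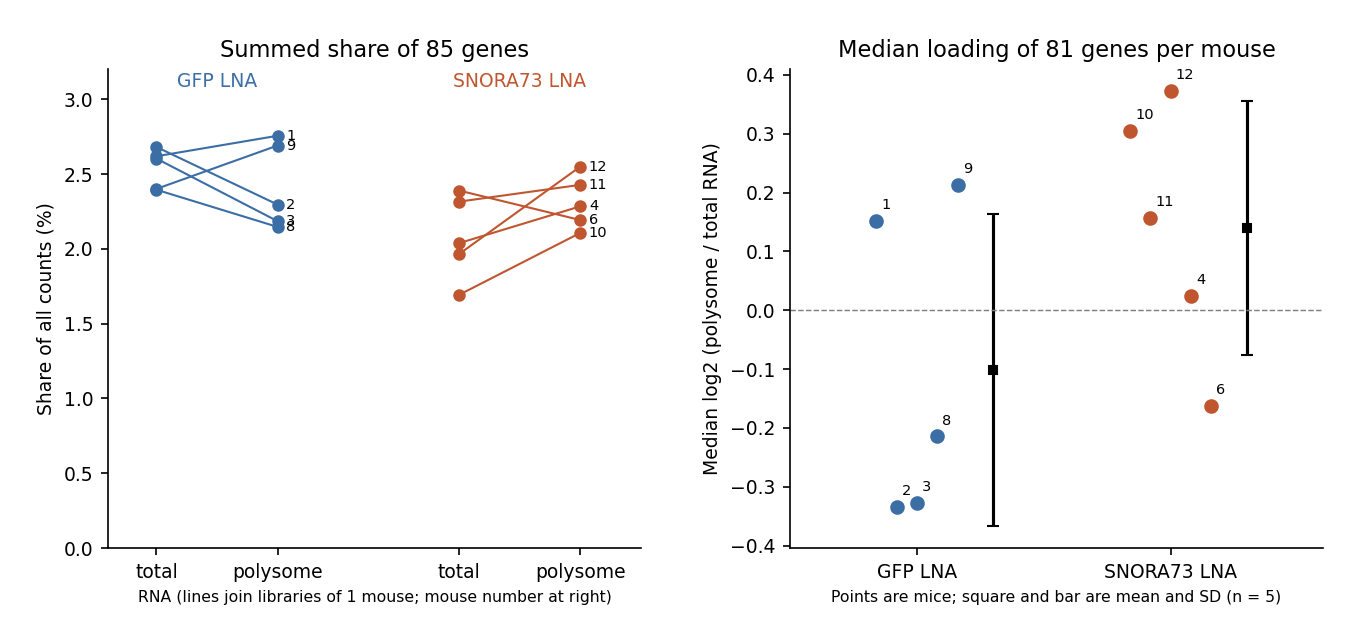
Left, share of all counts (%) held by the 85 genes in total and polysome RNA of each mouse. Right, median log2 loading of the 81 tested genes in each mouse, with squares and bars for the mean and SD of 5. The share fell from total to polysome RNA in GFP mice 2, 3 and 8 and SNORA73 mouse 6 and rose in the other 6 mice.

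Rps18 had the largest change in loading. Its per-mouse loadings were -0.45, -0.87, -0.97, -0.84 and -0.17 in GFP and -0.14, -0.50, 0.53, 0.02 and 0.28 in SNORA73 livers, an interaction of 0.67 ± 0.22 (adjusted p = 0.9999, unadjusted p = 0.00689). Those of Rpl21 were 0.15, -0.52, -0.59, -0.66 and -0.10 in GFP and 0.13, 0.20, 0.13, 0.34 and 0.44 in SNORA73 livers, with an interaction of 0.58 ± 0.18 (unadjusted p = 0.00380 by edgeR). In both, GFP mice 1 and 9 were again nearest to the SNORA73 mice. Rpl23 came to 0.55 ± 0.20 (unadjusted p = 0.0107 by edgeR) and Rpl13a, which can leave the ribosome to silence inflammatory mRNAs, to 0.50 ± 0.21 (unadjusted p = 0.0261 by edgeR). Rpl10 came to 0.65 ± 0.26, or 0.20 with its pseudogenes added. The edgeR adjusted p was 0.9999 for each of these genes.

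The lowest values of the change in loading were those of Rps27l (-0.19 ± 0.17), Rpl15 (-0.05 ± 0.14), Rpl34 (-0.03 ± 0.19), Rpl39 (-0.01 ± 0.21) and Rpl36al (0.04 ± 0.17), all with an edgeR adjusted p of 0.9999. Rps27l had the lowest value, with loadings of 0.75, 0.91, 0.84, 0.72 and 1.06 in GFP and 0.93, 0.59, 0.55, 0.53 and 0.70 in SNORA73 livers. The other tested paralogs among the members were at 0.07 ± 0.15 for Rpl7l1 and 0.20 ± 0.30 for Rpl22l1. The stalk genes were at 0.11 ± 0.19 (Rplp0), 0.24 ± 0.19 (Rplp1) and 0.15 ± 0.26 (Rplp2), and the 5S particle genes at 0.40 ± 0.22 (Rpl5) and 0.13 ± 0.18 (Rpl11). Fau and Rack1 were at 0.27 and 0.10.

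The 14 other TOP mRNAs were above 0 in the change in loading in 14 of 14 cases with a median of 0.22, and none was called. In total RNA 11 of 14 were below 0, with a median of -0.06, and in polysome RNA 10 of 14 were above 0, with a median of 0.11. The assembly factors were above 0 in 16 of 37 cases, with a median of -0.04. Their total RNA was above 0 in 30 of 37 cases with a median of 0.14, and none was called there either. The highest change in loading among them was that of Ncl, nucleolin, at 0.70.

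Marker sums of other liver cells are given beside these values, and those of the endothelium did not overlap between the groups in polysome RNA. The 5 sinusoidal endothelial markers (5 of 5 found, Stab2 called in total RNA) summed to 80.4 to 99.5 CPM in GFP and 94.7 to 108.7 CPM in SNORA73 total RNA, and to 71.8 to 82.5 and 88.0 to 98.5 CPM in polysome RNA. The 5 erythroid markers summed to 395.7 to 790.2 and 231.9 to 738.0 CPM in total RNA, and to 751 to 1307 and 363 to 1230.1 CPM in polysome RNA. The sums were 114.1 to 253.4 CPM for 6 Kupffer cell, 138.6 to 279.5 CPM for 5 stellate cell, 9.96 to 54.9 CPM for 5 cholangiocyte, 2.65 to 10.4 CPM for 7 lymphocyte and 1.23 to 28.9 CPM for 4 neutrophil markers over all libraries. Ly6g was listed at 0 in 18 of 20 libraries, Ms4a1 and Krt7 in 2 each, and Nkg7, Krt19 and Retnlg in 1 each. The TMM factors were 1.01 to 1.06 in GFP and 0.877 to 0.982 in SNORA73 total RNA. In polysome RNA they were 1.01 to 1.13 in GFP and 0.894 to 1.03 in SNORA73 libraries, which overlapped. The part of these differences in the ribosomal protein values was not tested.

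Reads of near-identical copies limit some of the values. Pseudogenes named after a member held over 10% of the combined counts for 13 of the 81 genes, from 10.3% for Rpl15 to 88.7% for Rpl10, with Rps23 at 64.5% and Rpl10a at 44.9%. With these counts added, 13 genes were called higher and 26 lower in polysome RNA of GFP livers. The totals were the same but not all of the genes, as Rpl10 was no longer called. Copies under other symbols, such as those that start with Gm, were not summed. Genes that did not pass the 10% mark are therefore not shown to be free of reads shared with copies. The baseline counts also rested on single GFP mice: 8 were called higher without mouse 9, and 17 were called lower without mouse 2 or without mouse 8.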

How the data were processed

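The deposited file held kallisto estimated counts per gene for 20 libraries, which the authors made from reads trimmed with fastp and cleared of those that aligned to rRNA, and summed to genes of GRCm38. All 20 columns matched a sample. Counts were rounded to whole numbers. Genes with CPM above 0.5 in at least 4 libraries were kept and scaled by TMM, and edgeR's quasi-likelihood test (edgeR 4.0.16, R 4.3.3) was applied with Benjamini-Hochberg adjustment over all genes and a threshold of 0.05. Loading and its change were fitted over all 20 libraries with 4 group means, and LNA effects apart in total and polysome RNA. Errors of log2 values are SE. CPM are on a 20-library TMM scale. The p-values of the LNA effects measure the spread between mice. Those of loading and its change, and their SE, measure the spread between libraries within the 4 groups. They do not use the pairing of libraries by mouse, which enters only in the alternative with the mouse as a block.

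Total and polysome libraries of a number came from the same animal. Their deviations from the group means correlated with r = 0.126 to 0.579, and 9 of 10 correlated best with their own number. Named genes were the 5 highest and 5 lowest of each comparison, the stalk, 5S particle and member paralog genes, Fau and Rack1; some items are not reported here, and others named from the counts were chosen after their values were seen. Members and lists were chosen with earlier results of these data known. Levels per transcript length were planned and not made, as no transcript lengths were in the reference used, so levels are not compared between genes. Alternatives were DESeq2 1.42.0 and its size factors, limma-voom (limma 3.58.1), library totals, other filters, the mouse as a block, all libraries in 1 fit, each mouse left out, mice 9 and 10 left out (an earlier analysis took this pair as the 1 sample per group the study excluded without naming it) and, chosen after seeing the data, counts summed with named pseudogenes.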

Additional observations from a re-analysis of the deposited data

Results flagged for a closer look

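In 122 groups of 5 values (4 groups of libraries for each named gene, and the summed shares and medians), 4 held a mouse that stood apart by Dixon's test, which by chance flags about 1 in 20. In total RNA of GFP livers Rpl11 was 204.5 CPM in mouse 9 and 260.6 to 278.8 CPM in the others. Mouse 8 of the same group was lowest for Rpl38, at 191.4 CPM against 226.3 to 233.7 CPM, and for Rplp2, at 123.4 CPM against 160.8 to 166.3 CPM. In total RNA of SNORA73 livers Rpl22 was 224.0 CPM in mouse 11 and 174.9 to 184.7 CPM in the others.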

How the results depend on the processing

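No LNA or interaction comparison gained a member call under edgeR's alternatives, except Rpl21 in polysome RNA with all 20 libraries in 1 fit (1 called higher). DESeq2 called 2 lower in total RNA and 1 higher in polysome RNA. Without mice 9 and 10 the members called higher in loading of GFP livers numbered 8. Leaving out each mouse gave 8 to 13 called higher and 17 to 27 called lower there. With the mouse as a block the median change in loading was 0.25, no member was called for it, and 17 and 30 were called higher and lower in GFP livers. The block made Rpl10 in SNORA73 livers a call and changed no other named call. With library totals the median LNA difference in total RNA was -0.28. Without mitochondrial genes the mean shares in total RNA were 2.91% (GFP) and 2.38% (SNORA73). The median change in loading stayed between 0.16 and 0.32.

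Of 1159 values of single genes under alternatives, 36 changed sign, 22 lost and 5 gained a call, and of 289 summary values 10 moved. In total RNA, library totals gave Rpl22 -0.0314, Rpl7l1 -0.0516, Rpl36al -0.10 and Rpl21 -0.14. Rpl21 was also below 0 with DESeq2's size factors (-2.83e-05), at least 1 count in any library (-0.0148), CPM above 1 in every library (-0.00666) and without mice 9 and 10 (-0.0258), and Rpl10 was above 0 with limma-voom (0.00707) and with pseudogenes added (0.0272). Loading in SNORA73 livers was 0.14 for Rpl10 with pseudogenes added, and for Rpl22l1 0.0103 with library totals, 0.0357 with limma-voom and 0.0350 with the block. The change in loading without mice 9 and 10 was 0.0314 for Rpl34 and 0.0919 for Rpl39, and 5.08e-05 for Rpl39 with DESeq2's size factors. Leaving out single mice spanned 0 in total RNA for Rpl10 (-0.0860 to 0.0987), Rpl21 (-0.0187 to 0.0468) and Rpl36al (-0.0348 to 0.0735), in the change in loading for Rpl15 (-0.0913 to 0.0141), Rpl34 (-0.0962 to 0.0828) and Rpl39 (-0.0958 to 0.14), and in loading of SNORA73 livers for Rpl22l1 (-0.0907 to 0.12). The cause was not tested.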
